A study of Mus musculus with 12 samples.

Results

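Of 12 soleus libraries, 3 carried Myh4, the gene of the fast type 2B myosin heavy chain, above 30 TPM (a transcript abundance scaled for gene length and library total), and 9 carried it at 30 TPM or less. The libraries were chosen by their measured Myh4 values, so everything that sets the 3 against the 9 is a description, given without a test. The 3 were 1 LF control library (LF control 3), 1 LF laparotomy library (LF laparotomy 1) and 1 HF laparotomy library (HF laparotomy 2). High Myh4 went with a short set of fast fibre genes: Mybpc2, Actn3 and Pvalb were about 4-fold higher, while the other 20 measured genes of the fast contractile and fast calcium lists differed by no more than 1.28-fold upward. None of these 3 genes fully separated the 3 libraries from the 9. HF control 2, among the 9, exceeded LF control 3 and LF laparotomy 1 in Actn3 and Pvalb. Mybpc2 in LF laparotomy 1 lay within the range of the 9, and Mybpc2 had been given beforehand as a marker with Myh4.

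Skeletal muscle fibres differ in speed and in fuel use, and each type is built on its own myosin heavy chain: Myh7 in slow fibres, Myh2 in fast oxidative type 2A, Myh1 in type 2X and Myh4 in type 2B, the fastest and most glycolytic. Fast fibres also use their own isoforms of troponin, light chains, myosin binding protein C, alpha-actinin and the calcium pump, and store parvalbumin as a calcium buffer. The mouse soleus is a postural muscle of mainly slow and type 2A fibres in which type 2B fibres are rare.

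The mice were 24-month-old C57BL/6N males from the NIA aging colony, housed singly, with 8 weeks of voluntary wheel running in every group. Performance on an accelerating rotarod placed them in a high functioning (HF) or a low functioning (LF) class. Soleus was taken 5 days after laparotomy, an opening of the abdomen, or at the same time from controls that had none, which gave 4 groups of 3 libraries: control and laparotomy, each in LF and in HF. The labels call the libraries replicates without saying that each is a separate mouse, so p-values below cover only the variation among the libraries, part of which may be technical. Replicate numbers only name the libraries.

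Checked against the myosins, the tissue held mainly the slow and type 2A chains: Myh7 made up 39% to 64.6% and Myh2 23.2% to 48.3% of the summed TPM of Myh7, Myh2, Myh1 and Myh4 across the 12 libraries. Myh2 exceeded Myh7 in LF laparotomy 1, a high Myh4 library, and in LF laparotomy 3. TPM keeps no read depth, so no counting error could be given. The table held 10324 to 10954 genes at 1 TPM or more per library, and the libraries correlated at 0.968 to 0.991 on the log2 scale.

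To show where the leading genes start, the 250 bases before the RefSeq start site (GRCm38.p6, sense strand) are printed for the 3 that have an entry. They are Myh4 (chr11:67237562-67237811, plus strand), Mybpc2 (chr7:44524670-44524919, minus strand) and Pvalb (chr15:78206401-78206650, minus strand, the first of 2 entries). Gene coordinates in later paragraphs come from the GENCODE annotation, which places the Myh4 start at 67238029 and the Mybpc2 start at 44524656. Neither directly adjoins its window. Capitals mark E-boxes (CANNTG, the letters bound by MyoD family factors) and matches to the MEF2 motif, another muscle factor's site.
Myh4: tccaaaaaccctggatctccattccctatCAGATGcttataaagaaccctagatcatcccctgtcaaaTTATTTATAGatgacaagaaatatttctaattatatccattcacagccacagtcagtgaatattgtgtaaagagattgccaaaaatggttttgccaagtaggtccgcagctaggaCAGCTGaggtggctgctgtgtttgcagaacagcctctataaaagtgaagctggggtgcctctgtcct
Mybpc2: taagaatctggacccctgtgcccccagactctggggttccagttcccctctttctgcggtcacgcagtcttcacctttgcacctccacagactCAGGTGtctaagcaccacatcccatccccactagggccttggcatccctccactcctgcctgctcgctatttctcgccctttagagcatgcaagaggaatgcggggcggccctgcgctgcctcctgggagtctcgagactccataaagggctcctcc
Pvalb: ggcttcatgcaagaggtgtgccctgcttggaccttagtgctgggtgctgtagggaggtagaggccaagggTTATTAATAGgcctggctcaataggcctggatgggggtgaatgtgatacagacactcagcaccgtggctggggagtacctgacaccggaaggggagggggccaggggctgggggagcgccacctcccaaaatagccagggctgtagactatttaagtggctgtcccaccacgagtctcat
Both strands were searched. The Myh4 window held 2 E-boxes and 1 MEF2 match, the Mybpc2 window 1 E-box and no MEF2 match, and the Pvalb window 1 MEF2 match and no E-box. None held the MEF3 letters TCAGGTT. Of 32851 promoter windows of this length, 66.2% held an E-box, 2.92% a MEF2 match and 3.49% the MEF3 letters, and a match is only a description of the letters. Actn3 is named only.

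Myh4 (ENSMUSG00000057003, chr11:67238029-67260446, GRCm38) stood at 33.5 TPM in LF control 3, 62.4 in LF laparotomy 1 and 90.8 in HF laparotomy 2. The other 9 libraries ran from 3.05 to 5.93 TPM with a median of 5.1. The library just inside the limit was thus LF control 3 at 33.5 TPM and the one just outside was HF laparotomy 1 at 5.93 TPM, with no library between. As a share of the 4 adult myosins, Myh4 made up 0.471%, 0.983% and 1.88% in the 3 libraries and 0.0549% to 0.143% in the 9, so it stayed a minor myosin in every library. Of its 31-base stretches, 30.4% also occur in transcripts of other genes, most with Myh1 (19.4%), so part of its estimate rests on how shared reads were divided.

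**Figure D1:**
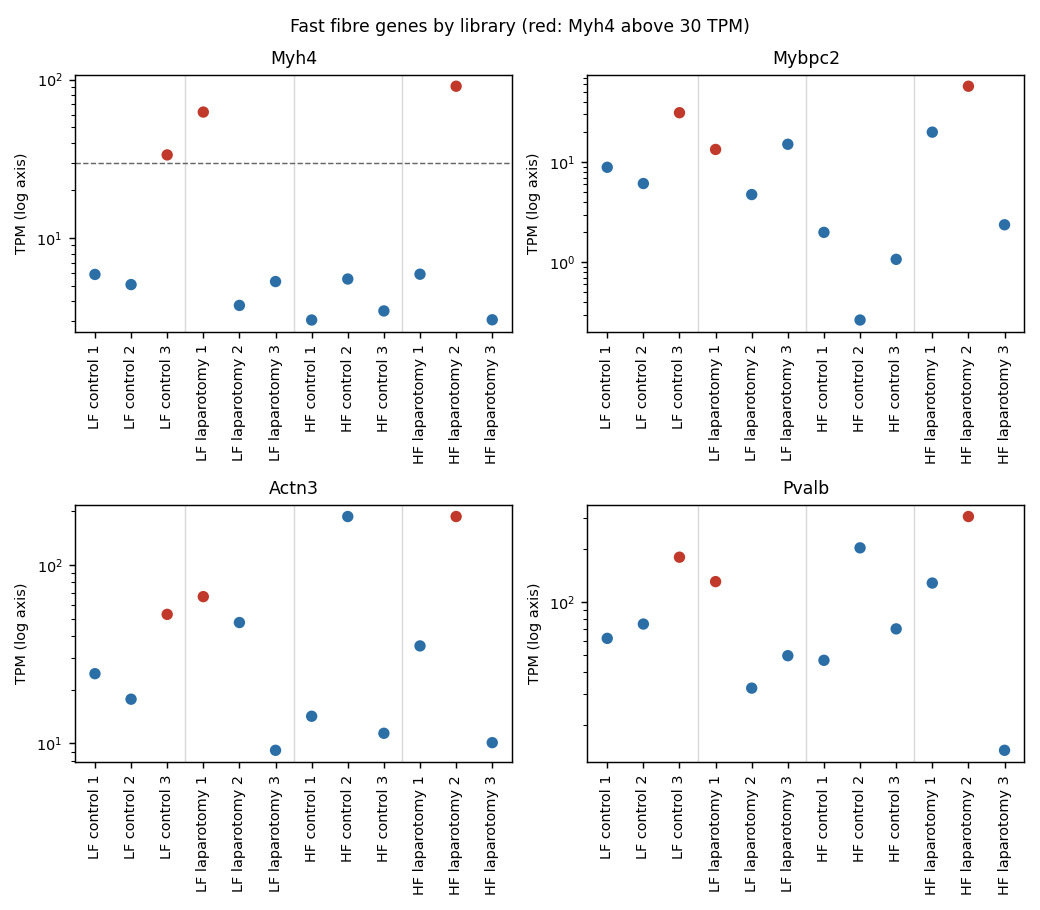
TPM (log axis) of Myh4, Mybpc2, Actn3 and Pvalb in each of the 12 libraries, in their 4 groups; red points are the 3 libraries with Myh4 above 30 TPM (dashed line) and blue points the other 9. Actn3 and Pvalb were highest of their group in all 3 red libraries, and HF control 2 (blue) stood high in both with Myh4 at 5.53 TPM.

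Mybpc2, the fast isoform of myosin binding protein C in the thick filament, stood at 31.2 TPM in LF control 3, 13.4 in LF laparotomy 1 and 57.4 in HF laparotomy 2. In the 9 it ran from 0.265 to 19.96 TPM with a median of 4.75. LF control 3 and HF laparotomy 2 lay above all 9, but LF laparotomy 1 lay below LF laparotomy 3 (15.1 TPM) and HF laparotomy 1 (19.96 TPM). With condition and treatment as covariates, the difference was 2.09 ± 0.67 on the log2(TPM + 1) scale (SE; a fold of 4.27), and 1.26 without HF laparotomy 2. The gene lies at chr7:44501699-44524656 and shares no 31-base stretch with another gene.

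Actn3, the alpha-actinin of fast fibre Z-lines (chr19:4861216-4877909), stood at 52.9 TPM in LF control 3, 66.5 in LF laparotomy 1 and 187 in HF laparotomy 2. The 9 ran from 9.15 to 187 TPM with a median of 17.7. All 3 high Myh4 libraries were highest in their own group, and they overlapped the 9 only through HF control 2, at 187 TPM. The difference was 1.99 ± 0.75 log2, a fold of 3.98.

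Pvalb, which encodes parvalbumin, the cytosolic calcium buffer of fast fibres (chr15:78191114-78206400), stood at 180 TPM in LF control 3, 130 in LF laparotomy 1 and 306 in HF laparotomy 2. The 9 ran from 14.3 to 203 TPM with a median of 62. Each of the 3 was again highest in its group, and only HF control 2 at 203 TPM overlapped them. The difference was 1.94 ± 0.54 log2, a fold of 3.85.

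Within single groups, the high library was set against the mean log2(TPM + 1) of the other 2 of its group. In LF control the excess was 2.41 log2 for Myh4, 1.94 for Mybpc2, 1.3 for Actn3 and 1.39 for Pvalb. In LF laparotomy it was 3.53 for Myh4, 0.58 for Mybpc2, 1.6 for Actn3 and 1.68 for Pvalb. In HF laparotomy it was 4.11 for Myh4, 2.8 for Mybpc2, 3.23 for Actn3 and 2.79 for Pvalb. HF laparotomy 2 thus had the largest excess for each of the 4 genes, and Mybpc2 in LF laparotomy was the smallest of these 12 values.

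HF control held no library above 30 TPM of Myh4, but HF control 2 carried some of the same genes. Its Actn3 (187 TPM) and Pvalb (203 TPM) exceeded those of LF control 3 and LF laparotomy 1. Its Myh4 was 5.53 TPM and its Mybpc2, at 0.265 TPM, was the lowest of all 12 libraries. Its Myh1 was also the lowest of the 12, at 329 TPM. Of the summed TPM of Myh7, Myh2, Myh1 and Myh4, Myh1 made up 6.41% in HF control 2, again the lowest share. Myh7 made up 63.3% there, near the top of the 39% to 64.6% across the 12 libraries. Some other list members were highest of the 12 in this library and are named here after their values were seen. They include Prkag3, a fast fibre AMPK subunit, at 10.4 TPM (3.14 to 5.36 in the rest). Myod1, a myogenic transcription factor, stood at 9.34 TPM (1.72 to 5 in the rest). Sln, the calcium pump inhibitor sarcolipin, which is listed with the slow calcium genes, stood at 278 TPM (43.8 to 133 in the rest). How many of all genes were highest in this library was not counted. Its summed class II antigen presentation genes (70.3 TPM) were the second highest of the 12, and their part in these values was not tested.

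Across all 10756 genes described (mean of at least 1 TPM, Myh4 left out), few differed by much. The median difference was -0.07 log2, and -0.0013 with size factors, so small differences in TPM depend on the scaling; 23% of genes lay above 0. At 1 log2 or more, 7 genes were higher (0.0651%) and 11 lower (0.102%). Mybpc2, Actn3 and Pvalb ranked 2, 3 and 4 in size and were the only named genes among the 7. The rest of the 7 were the predicted genes Gm28438, Gm10925, Gm4294 and Gm11786, and the 11 lower were 10 predicted genes and Msantd4. Gm28438 (chr1:24612775-24613119) and Gm10925 (chr1:24613974-24614651) lie close together. Any sequence that the predicted genes share with other genes was not measured, so how shared reads were divided may affect their values. The Msantd4 value turned on 1 library: it was listed at 0.0189 TPM in LF control 3 but at 4.39 in LF laparotomy 1 and 6.9 in HF laparotomy 2, against 4.48 to 9.91 in the 9.

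No gene combined a difference of 1 log2 with a complete separation of the 3 from the 9 (0%). This count changed when a library was left out: without LF laparotomy 1, Mybpc2 met both conditions (2.88 log2), and without HF control 2, Actn3 (2.13) and Pvalb (2.01) did. For these 3 genes the library left out was the only one that broke the separation, so that outcome was fixed beforehand. Lower genes met both conditions too: H2-Aa (-1.04) and Plac9b (-1.13) without LF laparotomy 1, H2-Aa (-1.02) without HF control 3, H2-Eb1 (-1.12) without LF laparotomy 3, and Msantd4 (-1.73) and Mybph (-1.15) without HF laparotomy 2. The predicted genes Gm7666, Gm14303, Gm21060, Gm38317 and Gm4724 each met them, all lower, without 1 library.

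Regardless of size, all 3 libraries lay above all 9 for 4 genes (0.0372%) and below all 9 for 14 (0.13%), with differences of 0.19 to 0.41 log2 upward and -0.17 to -0.73 downward. None belonged to a fast or slow fibre list. How many genes another choice of 3 libraries would set apart was not counted, so these genes are not shown to go with Myh4. The 4 were Ppp2r2c, Fam57b, Rpsa and Cpm, here named after their values were seen. Ppp2r2c, a regulatory subunit of protein phosphatase 2A, stood at 2.26, 2.42 and 2.45 TPM in the 3 and 1.13 to 1.88 in the 9. Rpsa, a protein of the small ribosomal subunit, stood at 12.2, 12.3 and 12 TPM against 8.55 to 11.7. Fam57b shares exon bases with Aldoa on the opposite strand, and its value is uncertain because no source used here says whether quantification kept the strand. Among the 14, Zfyve21 had the largest difference (-0.73 ± 0.21), at 0.191, 0.658 and 0.527 TPM against 0.755 to 2.64. Coa6, a cytochrome oxidase assembly factor that also shares exon bases with an opposite-strand gene, stood at 5.5, 5.19 and 4.74 TPM against 5.92 to 11.9.

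A looser order asked only that the high library be the highest of its own group of 3. This held in all 3 groups for 89 genes (0.827%), and the reverse order for 307 (2.85%). The fast contractile list gave 4 of 12 of the former (Actn3, Mylpf, Tpm1 and Myoz1), the fast calcium list 1 of 11 (Pvalb) and the slow contractile list 0 of 12; Prkag3 was another.

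**Figure D2:**
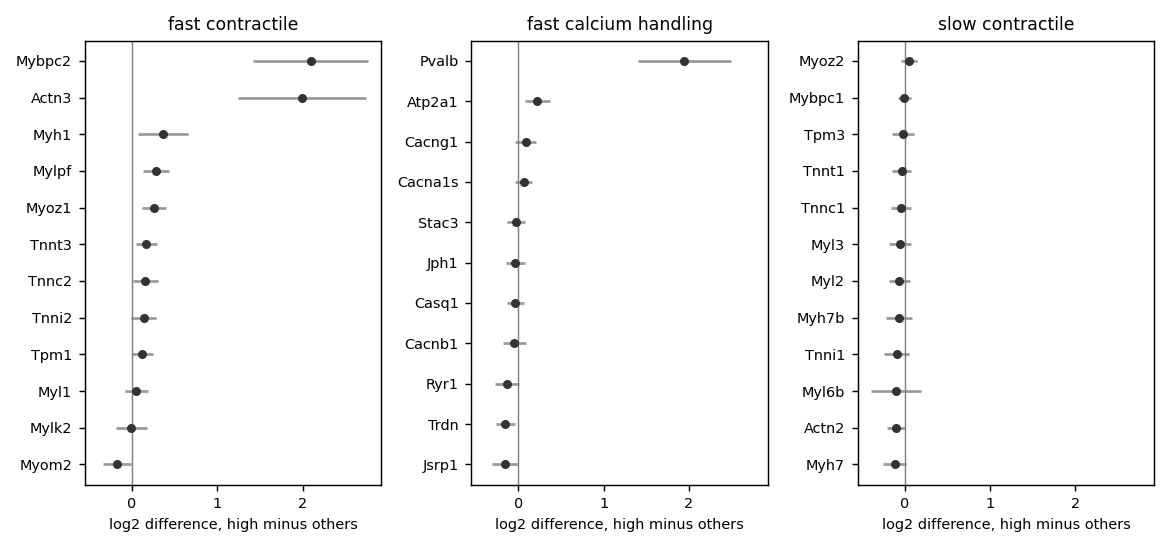
Difference between the 3 high Myh4 libraries and the other 9 on the log2(TPM + 1) scale, adjusted for condition and treatment, for each tested gene of 3 lists; points are fitted differences and bars 1 SE. Mybpc2, Actn3 and Pvalb stand near 2 and every other gene lies between -0.18 and 0.36.

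The 12 fast contractile genes had a median difference of 0.16 log2, against -0.07 for all genes, with 10 of 12 above 0. Only Mybpc2 and Actn3 passed 1 log2. Myh1, the type 2X myosin, followed at 0.36 ± 0.29. It stood at 874 TPM in LF control 3, 744 in LF laparotomy 1 and 1027 in HF laparotomy 2, within the 329 to 1139 TPM of the 9, and only the HF laparotomy library was highest in its group.

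Mylpf, the fast regulatory light chain, differed by 0.28 ± 0.15 and Myoz1, a Z-line protein of fast fibres, by 0.26 ± 0.14. Mylpf stood at 3342, 4112 and 2982 TPM in the 3, in the order LF control, LF laparotomy and HF laparotomy, and at 2111 to 3852 in the 9. The 3 fast troponin genes were close together, with Tnnt3 at 0.17 ± 0.13, Tnnc2 at 0.16 ± 0.15 and Tnni2 at 0.14 ± 0.15, and each was highest of its group in 2 of 3 groups. Tpm1 (tropomyosin 1) at 0.12 ± 0.13, the light chain gene Myl1 at 0.05 ± 0.14, the light chain kinase gene Mylk2 at -0.01 ± 0.18 and the M-band gene Myom2 at -0.18 ± 0.16 made up the list. Summed over the list, the 3 libraries held 40766 to 46111 TPM and the 9 held 30359 to 45174. Tnnc2 shares exon bases with Ube2c on the opposite strand.

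The 11 fast calcium genes had a median difference of -0.04 log2 (0.04 with size factors) with 4 above 0. Beside Pvalb, the largest was Atp2a1, the fast calcium pump SERCA1, at 0.22 ± 0.15. It stood at 3828 TPM in LF control 3, 3048 in LF laparotomy 1 and 3368 in HF laparotomy 2, against 2387 to 3769.6 in the 9. The release channel Ryr1 differed by -0.13 ± 0.14, the calcium store protein gene Casq1 by -0.04, the calcium channel subunits Cacna1s by 0.06, Cacng1 by 0.09 and Cacnb1 by -0.05, and the triad genes Jph1, Stac3, Trdn and Jsrp1 by -0.16 to -0.03. None but Pvalb was highest in all 3 groups.

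The metabolic genes of fast fibres had medians near that of all genes. The 27 glycolysis and glycogen genes had a median of -0.02 log2 (0.05 with size factors), spanned -0.23 to 0.27, and lay above 0 in 12 cases. Gpd1, a glycerol phosphate shuttle enzyme, was highest at 0.27, Fbp2 (muscle fructose bisphosphatase) stood at 0.19, and Ppp1r3c, a glycogen targeting subunit of protein phosphatase 1, was lowest at -0.23. The 6 phosphagen and adenine nucleotide genes had a median of -0.04, with Prkag3 highest at 0.32 ± 0.24 and Ckm, muscle creatine kinase, at -0.09. The 10 tested fast fibre regulators of 11 had a median of -0.02: Myod1 stood at 0.13, Maf at 0.13 and Eya1 at -0.3, with Nfix lowest at -0.41.

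The slow programme differed as little. The 12 slow contractile genes spanned -0.12 to 0.05 log2 with a median of -0.06 (0.01 with size factors) and 1 above 0. Myh7 was lowest at -0.12 ± 0.13, with 3339, 2473 and 2280.3 TPM in the 3 and 2179 to 3328 in the 9, so LF control 3 exceeded every one of the 9 while the others did not. The type 2A myosin Myh2 differed by 0.02 ± 0.16. The 4 slow calcium genes had a median of -0.11 log2 with 1 above 0. Their summed TPM was 2212 to 3760.3 in the 3 and 1859.5 to 3306 in the 9. Among these 4 genes Pln, phospholamban, the inhibitor of the slow calcium pump, was lowest at -0.48 ± 0.17. It stood at 5.05, 4.89 and 3.92 TPM against 4.45 to 10.8 in the 9 and was lowest of its group in all 3 groups. The developmental myosins Myh3 (-0.32) and Myh8 (-0.12) were not higher in the 3.

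Nuclear genes of oxidative phosphorylation (24, median -0.01), the citric acid cycle (11, median -0.04), fatty acid use (19, median -0.06) and the 13 mitochondrially encoded genes (median 0.01) lay near the all-gene median. The 12 slow and oxidative regulators had a median of -0.2 with 0 above 0, led by Ppara at -0.43, Esrrg at -0.3 and Ppargc1a at -0.25. The 11 neuromuscular junction genes (median -0.13) also had 0 above 0, with Musk lowest at -0.37, beside 23% of all genes above 0. In the denervation and regeneration list, 6 of 10 were tested, with Gadd45a at 0.56, Myog at 0.38 and Ncam1 at -0.24.

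Mylk4, a myosin light chain kinase family member in no list and named here after its values were seen, differed by 0.63 ± 0.25. It stood at 28.1 TPM in LF control 3, 8.42 in LF laparotomy 1 and 13.2 in HF laparotomy 2, against 4.4 to 17.6 in the 9. Only LF control 3 lay above all 9.

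**Figure D3:**
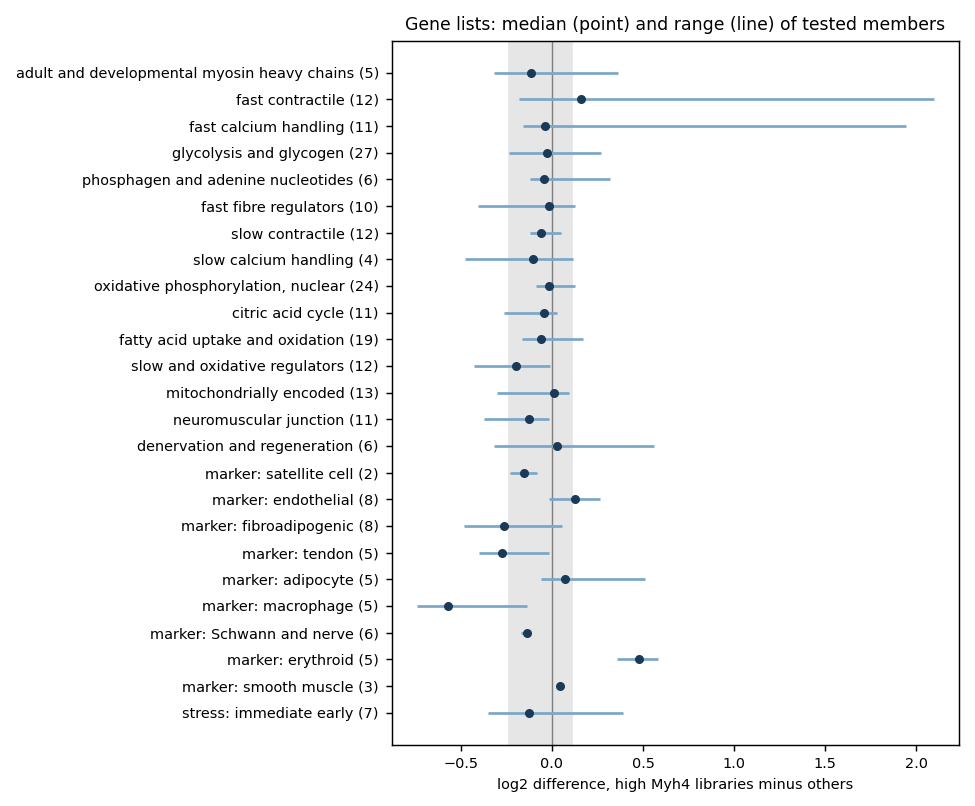
Median (point) and range (line) of the log2 difference between the 3 high Myh4 libraries and the other 9 for 25 gene lists, with the number of tested members in brackets; the grey band holds the middle 90% of all 10756 genes (-0.24 to 0.11). The fast lists reach far to the right through Mybpc2, Actn3 and Pvalb, while the macrophage median lies left of the band, with part of its range inside it, and all erythroid markers lie right of it.

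Markers of other cell types differed too. Macrophage markers (5 of 7 tested) had a median of -0.57 log2 with 0 of 5 above 0: Cd68 stood at -0.74, Lyz2 at -0.62 and C1qa at -0.57. Summed over all 7, they gave 31.7 to 35.4 TPM in the 3 libraries and 29.5 to 96.2 in the 9 (median 43.9), so the 3 lay within the lower range of the 9. Adgre1, which encodes the macrophage protein F4/80, was low throughout, at 0.211 to 0.265 TPM in the 3 and 0.193 to 0.879 in the 9. The class II antigen presentation genes H2-Aa, H2-Ab1, H2-Eb1 and Cd74, chosen after their values were seen, summed to 18.9 to 21.2 TPM in the 3 and 19.6 to 96 in the 9. H2-Aa, the largest of them at -0.98 ± 0.39, stood at 4, 5.24 and 4.26 TPM against 4.94 to 20.2.

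Erythroid markers had a median of 0.48 log2 with 5 of 5 above 0. Their sums were 2043 to 2803 TPM in the 3 and 974 to 3705 in the 9 (median 1380.1), so the 3 lay within the range of the 9. Only LF laparotomy 1 had the highest sum of its group, and no erythroid marker was highest of its group in all 3 groups. Endothelial markers (8) had a median of 0.13, fibroadipogenic (8) -0.26, tendon (5 of 7) -0.28, adipocyte (5 of 7) 0.07, Schwann and nerve (6 of 7) -0.14, smooth muscle (3 of 5) 0.04, satellite cell (2 of 6) -0.15 and immediate early genes (7 of 8) -0.13. In whole muscle, fewer cells of a type and less RNA per cell cannot be told apart, and the part of these markers in the fast gene values was not tested.

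**Figure D4:**
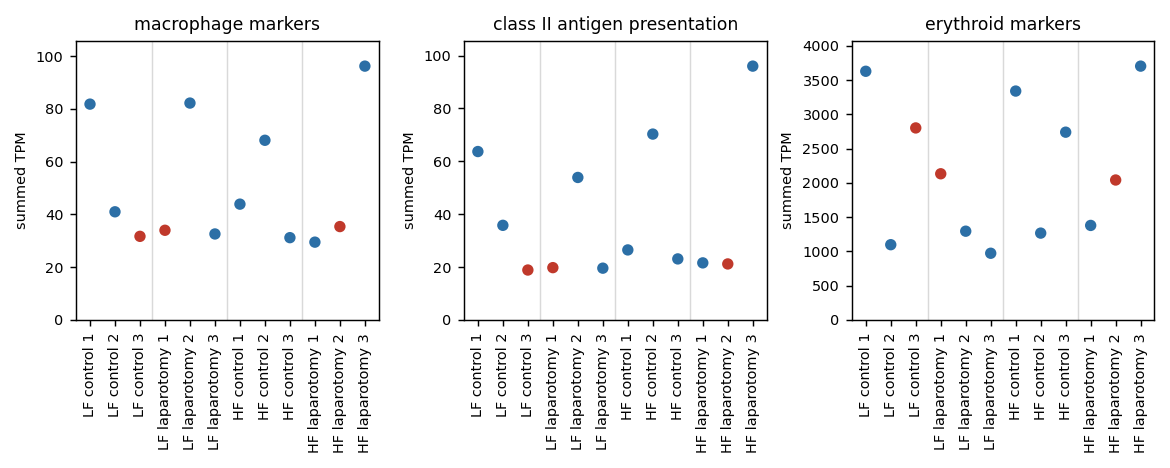
Summed TPM of 7 macrophage markers, 4 class II antigen presentation genes and 5 erythroid markers in each library; red points are the 3 libraries with Myh4 above 30 TPM. The red libraries sit low for the first 2 sums, as do several blue ones, and between 2043 and 2803 TPM for the erythroid sum.

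Whether the same genes followed Myh4 where it was low was asked in the 9 libraries alone, whose Myh4 order the split did not use. A limma fit of each gene on log2(Myh4 TPM + 1), with condition and treatment, left 5 residual degrees of freedom over a range of only 3.05 to 5.93 TPM. It called 0 of 10756 genes higher (0%) and 0 lower (0%) at an adjusted p of 0.05, with 167 at an unadjusted p under 0.05. Pvalb had the lowest p of all genes, with a slope of 2.78 ± 0.48 log2 per log2 of Myh4 (limma, adjusted p = 0.668). Slopes were 1.77 ± 0.81 for Mybpc2 and 2.23 ± 1.14 for Actn3 (limma, adjusted p = 1 for each). Of the 12 fast contractile genes, 3 had a slope above 0, against 46.3% of all genes.

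Myh4 itself passed no test between the study's own groups. Its mean was 4.02 ± 1.32 TPM in HF control and 33.3 ± 49.8 in HF laparotomy, and 14.9 ± 16.2 in LF control and 23.8 ± 33.4 in LF laparotomy (SD, n = 3 each), so each SD in a group with a high library exceeded its mean. Between HF and LF, averaged over treatment, limma called 649 of 10757 genes higher (6.03%) and 3798 lower (35.3%), or 1872 higher and 2428 lower with size factors. Log2 differences between HF and LF are given minus the all-gene median of -0.15. Their p-values test the differences before that subtraction, so a downward call can include the shift of all genes. Myh4 did not pass (-0.38 ± 0.79, limma, adjusted p = 0.615), nor did Mybpc2 (-0.94 ± 0.59, adjusted p = 0.153), Actn3 (0.42 ± 0.78, adjusted p = 0.802) or Pvalb (0.34 ± 0.63, adjusted p = 0.834). Without HF laparotomy 2, Mybpc2 was lower in HF by 1.41 log2 (limma, adjusted p = 0.0326). That run dropped the library with the highest Mybpc2 of all and kept the LF libraries with high Myh4, so it was not balanced. Without all 3 high Myh4 libraries the Mybpc2 difference was -0.97 (limma, adjusted p = 0.111). With high Myh4 as a covariate it was -0.64 (limma, adjusted p = 0.18).

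In the fast contractile list 0 of 12 genes passed upward and 3 downward: Mylpf (-0.22, limma, adjusted p = 0.0495), Tpm1 (-0.17, adjusted p = 0.0226) and Myom2 (-0.48, adjusted p = 0.00401). Again the median is subtracted from the differences but not from the tests. Of all genes, 6.03% passed upward and 35.3% downward. With size factors, or without the 3 high Myh4 libraries, 1 passed downward. Leaving out single libraries gave 1 to 5, with 1 without HF control 1, HF control 2 or HF laparotomy 3 and 5 without HF laparotomy 2. Myh2, the type 2A myosin, was lower in HF by 0.8 log2 relative to all genes (limma, adjusted p = 0.000374). In the fast calcium list 2 of 11 passed upward (Cacna1s and Jsrp1) and 5 downward (Casq1, Ryr1, Cacnb1, Jph1 and Stac3). The slow contractile list gave 3 of 12 upward (Myh7b, Tnnt1 and Tnnc1) and 1 downward (Actn2). Both lists stand beside 6.03% of all genes upward and 35.3% downward. Leaving out single libraries gave 1 to 2 upward in the fast calcium list and, in the slow contractile list, 2 to 5 upward (5 without LF control 1 or HF control 3, and 5 with size factors) and 1 to 2 downward (2 without LF control 2 or LF laparotomy 1).

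Between laparotomy and control, averaged over function, limma called 0 genes higher (0%) and 0 lower (0%), with 747 at an unadjusted p under 0.05. Minus the all-gene median of -0.07, the difference was 0.88 ± 0.79 for Myh4 (limma, adjusted p = 0.738), 1.45 ± 0.59 for Mybpc2 (adjusted p = 0.683), 0.32 ± 0.78 for Actn3 (adjusted p = 0.916) and -0.28 ± 0.63 for Pvalb (adjusted p = 0.85). These p-values also test the differences before the median was subtracted. Mybpc2 had group means of 1.11 ± 0.862 TPM in HF control and 26.6 ± 28.1 in HF laparotomy, against 15.4 ± 13.7 in LF control and 11.1 ± 5.56 in LF laparotomy (SD, n = 3 each), and the 57.4 TPM of HF laparotomy 2 carried most of the HF laparotomy mean.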

How the data were processed

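Per the labels' protocols, polyA RNA of 12 soleus libraries was sequenced from a strand-marking Illumina kit. The authors deposited TPM per gene; the submitters' processing notes name kallisto, DESeq2 and GRCm38 but give neither a version nor a role. Of 30323 gene identifiers, 29857 matched a symbol in GENCODE M21, which gave coordinates and transcripts, and promoters came from RefSeq.

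Members and gene lists were chosen with earlier results of these data known. From log2(TPM + 1), limma 3.58.1 in R 4.3.3 gave each gene's difference and SE between libraries above and at or below 30 TPM of Myh4, over genes averaging 1 TPM or more, with condition and treatment as covariates and 8 residual degrees of freedom; no p was taken from it. Genes were described as standing apart at 1 log2 and without overlap. HF against LF and laparotomy against control were fitted with 1 mean per group, and the slope on Myh4 in the 9 low libraries alone, with Benjamini-Hochberg adjusted p over all genes tested. Steps were tested on simulated data.

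The naming rule took every myosin, fast and slow contractile and fast calcium list member, the 15 genes most higher and 10 most lower that met both conditions (0 did), and up to 4 of each other list. Alternatives were other pseudocounts, filters, scalings, limits, covariates and weights, and leaving out each library.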

Additional observations from a re-analysis of the deposited data

Results flagged for a closer look

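Among 114 combinations of 38 genes and library groups, 6 held a library that stood apart from the rest by a gap test that chance meets in about 1 in 20. That is close to the number chance would give, and the library groups share libraries. Myh4 was left out, since its values chose the libraries. The Mybpc2 and Myoz1 flags below lie in libraries chosen in that way. Mybpc2 in HF laparotomy 2 stood at 57.4 TPM, with the next of the 6 HF libraries at 19.96. Among the 9 libraries with low Myh4, Actn3 stood at 187 TPM in HF control 2, with 47.6 next. Myoz1 stood at 386 TPM in LF control 3, with 331 next among the 6 LF libraries. Ryr1 stood at 352 TPM in LF laparotomy 3, with 236 next among the 9. Jsrp1 stood at 438 TPM in HF control 3, with 365 next among the 6 HF libraries. Myl3 stood lowest at 4833 TPM in LF control 2, with 6348 next among the 9.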

How the results depend on the processing

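Genes at least 1 log2 higher in the high Myh4 libraries numbered 7 and became 19 with a pseudocount of 0.1, 12 without covariates and 6 to 13 without single libraries (13 without LF laparotomy 2, 12 without HF laparotomy 2). Genes at least 1 log2 lower numbered 11 and became 28 with a pseudocount of 0.1, 6 with a mean of at least 5 TPM and 10 to 22 without single libraries (22 without HF laparotomy 2). Genes that also did not overlap numbered 0 and became 1 with a pseudocount of 0.1 (Zfyve21), 1 with a limit of 50 TPM (Gm21060; chosen after seeing the data) and 0 to 4 without single libraries (4 without LF laparotomy 1, 3 without HF laparotomy 2). Leaving out single libraries gave 0 to 3 genes with a slope on Myh4 (3 without LF control 1), 0 to 1 higher and 0 to 1 lower after laparotomy; with no filter 2 were lower after laparotomy. HF against LF gave 356 higher without the 3 high Myh4 libraries, and 1872 higher and 2428 lower with size factors. Without single libraries the difference ran from 1.26 to 2.88 for Mybpc2, 1.45 to 2.42 for Actn3 and 1.53 to 2.23 for Pvalb. These 3 differences kept their sign in every alternative run, and the fast contractile (0.14 to 0.24), macrophage (-0.72 to -0.32) and erythroid (0.23 to 0.68) medians also did. The medians near 0 changed sign: fast calcium ran from -0.09 to 0.04, glycolysis and glycogen from -0.12 to 0.06 and slow contractile from -0.12 to 0.01. Array weights were estimated without reaching convergence. A limit of 10 TPM gave the same 3 libraries, and one of 100 TPM was not run because no library exceeds it. The cause of these shifts was not tested. TPM keeps no depth, so the precision of low values is unknown. No paired analysis was made: HF and LF are separate classes of mice, controls had no laparotomy, and the labels link no library to one of another group.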
